A study of Homo sapiens with 18 samples.

Results

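In the count table of this study, with 58735 genes, 6 genes of nuclear bodies were followed: the SP100 family (SP100, SP110, SP140 and SP140L), the scaffold gene PML and the histone chaperone gene DAXX. They were chosen by gene name, and each name had 1 row, so 6 of 58735 rows are described. Counts came from GFP-positive OCI-Ly18 cells, a human line of diffuse large B-cell lymphoma, grown under the skin of immunodeficient NSG mice. The tazemetostat group (mice M_767, M_768 and M_774) received this EZH2 inhibitor by gavage at 150 mg/kg daily for 14 days from day 3 after implantation, and the vehicle group (mice M_766, M_769 and M_770) received vehicle over the same days. All 6 mice were then infused with CART19 cells, T cells carrying a chimeric antigen receptor, and GFP-positive tumour cells were sorted 11 days later, so both groups carry the effects of the T cells. Mice infused with UTD cells were not analysed here. The lymphoma is 1 cell line, NSG mice lack lymphocytes of their own, and the labels do not say if dosing went on once the T cells were given.

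PML nuclear bodies are small spherical compartments of the cell nucleus. The PML protein, modified by the small protein SUMO, forms their shell and recruits SP100, DAXX and many other proteins, and the bodies take part in antiviral defence, chromatin assembly and the control of apoptosis. SP100 and its relatives share an N-terminal HSR domain and a DNA-binding SAND domain, most forms end in a PHD finger and a bromodomain that read histones, and PML and the SP100 family are textbook interferon-stimulated genes. SP110 and SP140 are most abundant in leukocytes, B cells among them.

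The 4 family genes form a cluster on chromosome 2 (hg38). SP110 (ENSG00000135899) lies at 230167293 to 230225729 on the minus strand. SP140 (ENSG00000079263) lies at 230203110 to 230313215, SP140L (ENSG00000185404) at 230327184 to 230403732 and SP100 (ENSG00000067066) at 230415942 to 230544090, all on the plus strand. PML (ENSG00000140464) lies on chromosome 15 at 73994673 to 74047812 on the plus strand, and DAXX (ENSG00000204209) on chromosome 6 at 33318558 to 33323016 on the minus strand. SP110 and SP140 point away from each other and their models overlap by 22620 bases, of which 170 are exonic in both, 2.48% of the exonic bases of SP110 and 3.05% of those of SP140 in GENCODE 29. The antisense gene AC009950.1 shares 1262 exonic bases with SP110, and the pseudogene HMGB1P3 shares 544 with SP100. Counts in these stretches are uncertain because the strand setting is not stated, and reads could also be split between SP140 and its close paralog SP140L. The models hold 22 transcripts for PML, 19 for SP100, 15 for SP110, 14 for SP140, 11 for DAXX and 10 for SP140L, and gene counts do not tell these isoforms apart.

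The start regions of the cluster genes are shown because they share a stretch of adenine-rich sequence beside their starts. RefSeq windows (GRCh38.p14, 250 bases before to 50 after a start) matched 4 of the 6 genes, with 6 windows in all. Below are the 250 bases before the start in 4 of these windows, 5′ to 3′ on the strand of the gene. Capitals mark the 17-base stretch GGAAAAGAAAAGTGAAA, or its reverse complement, with at most 1 mismatch.
SP110 window 1, chr2:230225637-230225886, minus strand: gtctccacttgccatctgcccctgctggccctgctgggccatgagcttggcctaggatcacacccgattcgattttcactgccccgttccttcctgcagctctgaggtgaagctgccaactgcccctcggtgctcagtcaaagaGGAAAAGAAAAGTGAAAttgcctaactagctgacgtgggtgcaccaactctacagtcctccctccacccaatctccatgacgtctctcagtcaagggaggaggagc
SP110 window 2, chr2:230219985-230220234, minus strand: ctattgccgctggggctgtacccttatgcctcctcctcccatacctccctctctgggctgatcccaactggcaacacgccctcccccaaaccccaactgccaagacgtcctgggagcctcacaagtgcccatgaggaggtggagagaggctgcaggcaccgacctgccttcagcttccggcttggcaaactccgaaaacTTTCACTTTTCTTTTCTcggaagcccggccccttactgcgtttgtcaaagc
SP140L window 1, chr2:230326943-230327192, plus strand: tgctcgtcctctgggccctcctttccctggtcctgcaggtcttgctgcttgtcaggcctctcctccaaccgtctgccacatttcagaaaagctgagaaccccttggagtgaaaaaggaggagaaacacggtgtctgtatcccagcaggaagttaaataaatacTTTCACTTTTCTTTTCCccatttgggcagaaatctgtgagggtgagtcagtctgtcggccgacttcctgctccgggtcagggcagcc
SP100 window 1, chr2:230415951-230416200, plus strand: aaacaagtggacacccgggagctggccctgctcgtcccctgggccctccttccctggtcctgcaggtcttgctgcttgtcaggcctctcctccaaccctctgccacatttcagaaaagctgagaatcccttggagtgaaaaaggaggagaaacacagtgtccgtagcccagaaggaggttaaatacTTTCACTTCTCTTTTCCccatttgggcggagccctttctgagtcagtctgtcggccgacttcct

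The 17-base stretch is the longest that the first windows of SP110, SP140 and SP140L share, and it was in 3 of 35116 windows of the table, those 3. Because it was taken from these 3 windows, its presence in them was fixed in advance and the count is no test. The window of SP140 is not printed because 199 of its 300 bases are the same bases of the genome as SP110 window 1, read from the other strand. A single copy of the stretch therefore lies 106 to 90 bases before the SP110 start and from 10 bases before to 7 bases after the SP140 start. SP110 window 2 held it with the substitution G1A and SP100 window 1 with A9G, where the base of the 17-base stretch comes first, the base of the window last, and positions count from 1 at the 5′ end of GGAAAAGAAAAGTGAAA. Aligned end to end, the first windows of SP140L and SP100 were 77.1% identical over 328 columns. The second SP100 window had no stretch within 6 mismatches.

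Interferon regulatory factors bind pairs of GAAA spaced by a few bases. On both strands, GAAANNGAAA was in 0 of the 6 windows and in 3.57% of all 35116 windows. Counted by gene, 0 of the 4 genes with a window held it, against 4.38% of all 27305 genes with a window. Of the 28 other interferon-stimulated genes with a window, 21 held it (75%). With a spacer of 3 bases, a spacing chosen after the windows were seen, GAAANNNGAAA was in 4 of the 6 windows and in 2.86% of all windows. By gene, it was in 3 of the 4, in 3.54% of the 27305 and in 6 of the same 28 (21.4%). Each of the 4 matches lies within the capitals or the same stretch of SP140, and those of SP110 window 1 and SP140 are 1 site read from both strands. A match is a description of these letters and not evidence of binding.

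Each mouse gave 3 libraries, A, B and C, whose meaning is not stated. They were summed, so n = 3 mice a group, and nothing says whether mice were handled in batches. Mouse sums held 59132193 to 69816184 counts in the tazemetostat group and 55712115 to 66053406 in the vehicle group. The 14 T-cell markers summed to 111 to 139 CPM in tazemetostat mice and 121 to 156 CPM in vehicle mice. Of this, TRBC2 alone gave means of 107 and 115 CPM in that order. TRAC had means of 12.5 and 11.8 CPM in the same order, PRF1 3.84 and 4.51 CPM, and CD8A 1.36 and 1.51 CPM. CD3E was detected in each mouse, with means of 0.057 and 0.093 CPM, whereas CD3D and CD3G had 0 counts in all 6 mice. The 8 B-cell markers, all detected in each mouse, summed to 2879 to 2886 CPM in tazemetostat mice and 2703 to 3211 CPM in vehicle mice. In the tazemetostat group, library M_768_C differed more from M_768_A and M_768_B (chi-square per degree of freedom 67.3 and 49.4) than any other 2 libraries of a mouse did from each other (2.02 to 4.81).

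None of the 6 genes passed the test for tazemetostat against vehicle (edgeR quasi-likelihood test, adjusted over 20301 genes, threshold 0.05), in which 0.0345% of all tested genes passed, 0.0197% higher and 0.0148% lower. At an unadjusted p under 0.05 there were 2 of the 6, SP110 and PML, both higher under tazemetostat, where 6.55% of all tested genes had one and 3.34% were higher. DESeq2, which called 0.323% of 36794 genes, and limma-voom also called 0 of the 6, with 3 at an unadjusted p under 0.05 each. Those 36794 are all genes with a DESeq2 p-value, low-count genes included, so its share is not directly comparable with one over 20301 genes. The log2 fold change was positive for 5 of the 6, all but DAXX, with a median of 0.28 (0.19 without M_766), where 48.1% of all tested genes were positive and the median was -0.01. The groups overlapped for each of the 6 genes, while they did not overlap for 12.6% of all tested genes, 6.58% higher and 6% lower under tazemetostat.

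**Figure D1:**
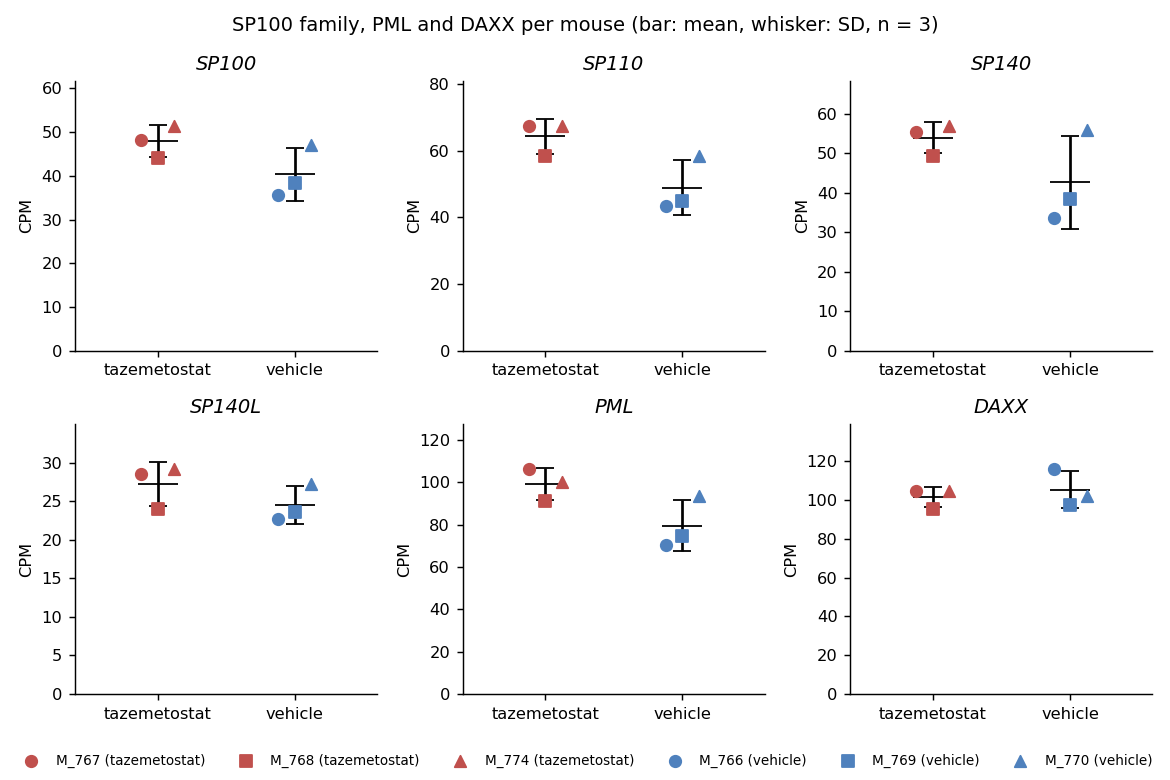
Level of each gene in CPM (y axis, from 0) in 3 tazemetostat mice (red, left) and 3 vehicle mice (blue, right), with the mean and SD in black. For 5 of the 6 genes the highest vehicle mouse, M_770, lies above the lowest tazemetostat mouse, M_768, and the other vehicle mice lie below all tazemetostat mice. The DAXX groups overlap in part, with a vehicle mouse highest and a tazemetostat mouse lowest.

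PML encodes the scaffold without which the bodies do not form, and its fusion to RARA drives acute promyelocytic leukaemia. PML was at 106, 91.0 and 100.3 CPM in tazemetostat mice M_767, M_768 and M_774, against 70.4, 74.8 and 93.4 CPM in vehicle mice M_766, M_769 and M_770. The vehicle mouse M_770 exceeded the tazemetostat mouse M_768, so the groups overlapped through that pair of mice. The M_768 sum includes the deviating library M_768_C, at 77.1 CPM. Libraries M_768_A and M_768_B were at 94.96 and 99.46 CPM, above the M_770 libraries (90.8 to 94.3 CPM). The means were 99.2 ± 7.64 CPM in tazemetostat mice and 79.5 ± 12.2 CPM in vehicle mice (SD, n = 3 each), a log2 fold change of 0.32 with a 95% interval of 0.06 to 0.58 before correction (edgeR adjusted p = 0.648).

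SP100, which gave the family its name, is an autoantigen of primary biliary cholangitis and binds the heterochromatin protein HP1. SP100 was at 48.1, 44.2 and 51.4 CPM in tazemetostat mice M_767, M_768 and M_774, against 35.6, 38.3 and 47.1 CPM in vehicle mice M_766, M_769 and M_770. Again a single vehicle mouse, M_770, lay among the tazemetostat mice. The mean was 47.9 ± 3.62 CPM in tazemetostat mice and 40.4 ± 6.04 CPM in vehicle mice, a log2 fold change of 0.25 (95% interval -0.01 to 0.51, edgeR adjusted p = 0.769).

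SP110 is a nuclear body protein of leukocytes whose loss causes an inherited immunodeficiency with liver disease in humans, and a mouse relative affects resistance to tuberculosis. SP110 was at 67.4, 58.3 and 67.3 CPM in tazemetostat mice M_767, M_768 and M_774, against 43.4, 44.8 and 58.4 CPM in vehicle mice M_766, M_769 and M_770. The overlap was slight, since M_770 and M_768 had almost the same level. With means of 64.3 ± 5.25 CPM in tazemetostat mice and 48.9 ± 8.25 CPM in vehicle mice, SP110 had the largest log2 fold change of the 6 genes, 0.40 (SE 0.124, 95% interval 0.12 to 0.67, edgeR adjusted p = 0.528), and was the 345th of 20301 genes by p. SP110 passed in fits that gained calls across all genes: without a low-count filter (log2 fold change 0.41, edgeR adjusted p = 0.0465, 0.685% of genes called) and with the 18 libraries and the mouse as a random effect (0.40, limma adjusted p = 0.0276, 1.38% of genes called, or 1.16% with the letters as a replicate block, where its adjusted p was 0.0447).

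SP140, a reader of histone marks restricted to immune cells, carries inherited risk variants for B-cell leukaemia and autoimmune disease. SP140 was at 55.4, 49.4 and 56.9 CPM in tazemetostat mice M_767, M_768 and M_774, against 33.5, 38.5 and 55.9 CPM in vehicle mice M_766, M_769 and M_770. The vehicle mouse M_770 was above 2 of the 3 tazemetostat mice. Relative to its mean, SP140 had the widest spread of the 6 genes among vehicle mice (coefficient of variation 27.5%), with means of 53.9 ± 3.97 CPM in tazemetostat mice and 42.6 ± 11.7 CPM in vehicle mice (log2 fold change 0.34, 95% interval -0.02 to 0.70, edgeR adjusted p = 0.783).

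SP140L is the close paralog next to SP140 and is little studied. SP140L was at 28.5, 23.9 and 29.2 CPM in tazemetostat mice M_767, M_768 and M_774, against 22.7, 23.6 and 27.3 CPM in vehicle mice M_766, M_769 and M_770. The lowest tazemetostat mouse was within 1 CPM of a vehicle mouse. The means were 27.2 ± 2.85 CPM in tazemetostat mice and 24.5 ± 2.43 CPM in vehicle mice (log2 fold change 0.15, 95% interval -0.10 to 0.40, edgeR adjusted p = 0.881).

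DAXX works with ATRX to place a replacement form of histone H3 on repeats and telomeres and is held in PML bodies. DAXX was at 104.8, 95.6 and 104.7 CPM in tazemetostat mice M_767, M_768 and M_774, against 116, 97.6 and 102 CPM in vehicle mice M_766, M_769 and M_770. The highest and the second lowest of the 6 mice were both vehicle mice. The means were 102 ± 5.26 CPM in tazemetostat mice and 105 ± 9.53 CPM in vehicle mice (log2 fold change -0.05, edgeR adjusted p = 0.966), and the 95% interval of -0.26 to 0.16 leaves folds of 0.835 to 1.12.

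Exact permutation tests of log2 CPM over the 6 mice gave p = 0.2 for SP100, SP110, SP140L and PML, 0.3 for SP140 and 0.8 for DAXX, where 0.1 is the smallest that 3 mice against 3 can give. In bulk RNA, fewer cells with a transcript and less of it per cell cannot be told apart.

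The vehicle mice were not alike. Relative to each gene's mean over the 6 mice, M_770 was at 107% for SP100, 103% for SP110, 116% for SP140, 105% for SP140L and 105% for PML, while M_766 was at 80.7%, 76.7%, 69.5%, 87.6% and 78.8% for the same genes. Vehicle mouse M_769 lay between them, at 79.2% for SP110 to 91.3% for SP140L. SP140 in M_770 was 1.55 times the mean of the other 2 vehicle mice, and the other 3 family genes and PML were 1.18 to 1.32 times. Without M_770, the log2 fold change was 0.59 for SP140 (edgeR adjusted p = 0.0692), 0.55 for SP110 (adjusted p = 0.0766), 0.45 for PML (adjusted p = 0.131), 0.38 for SP100 (adjusted p = 0.218) and 0.24 for SP140L (adjusted p = 0.496), and none passed. Without M_766, that of SP140 was 0.20 (adjusted p = 0.727), and without the tazemetostat mouse M_768 that of SP140L was 0.24.

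Other interferon-stimulated genes were mixed in this respect. Over 34 of these, each scaled to its own mean, the tazemetostat mice M_767, M_768 and M_774 averaged 117%, 107% and 143%, against 78.8%, 73.9% and 80.2% in the vehicle mice M_766, M_769 and M_770. M_770 was the highest vehicle mouse for 14 of the 34 genes, and its level over the mean of the other 2 vehicle mice had a median of 0.993 and ran from 0.631 to 1.79. For 10 of the 34 this ratio was at least the lowest of the SP100 family and PML. Examples chosen after their values were seen are LGALS3BP, a secreted glycoprotein, with a ratio of 1.79, and PARP9, a partner of the ubiquitin ligase DTX3L, with 1.55. The sum of CPM over the 34 genes was 1926 to 2180 in tazemetostat mice, against 1264, 1308 and 1555 in vehicle mice M_766, M_769 and M_770.

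**Figure D2:**
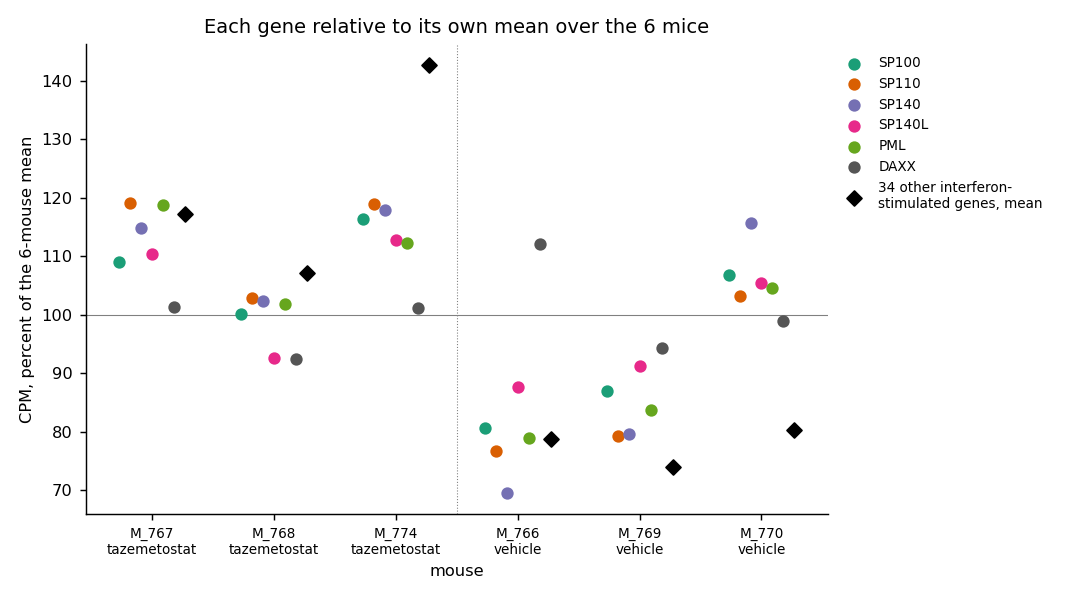
CPM of each gene in each mouse as a percentage of its mean over the 6 mice (y axis), with tazemetostat mice left of the dotted line and vehicle mice right of it; black diamonds are the mean over 34 other interferon-stimulated genes. In vehicle mouse M_770 the SP100 family and PML lie between 103% and 116% while the diamond, a mean over genes that vary among themselves, lies at 80.2%.

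The libraries of a mouse were close for these genes, with one exception. The highest library of a mouse was 1.01 to 1.2 times the lowest for each gene in 5 of the 6 mice. In M_768, SP100 was at 35.3 CPM in library M_768_C, against 48.2 and 47.2 CPM in its other libraries, SP140L at 19.8 CPM against 27.1 and 23.8 CPM, and PML at 77.1 CPM against 94.96 and 99.46 CPM. DAXX had 99.2 CPM in M_768_C and 95.8 and 94.5 CPM in the others. Without M_768_C the log2 fold changes were 0.28 for SP100, 0.41 for SP110, 0.35 for SP140, 0.18 for SP140L, 0.35 for PML and -0.05 for DAXX, and none of the 6 passed.

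Per kilobase of gene model, DAXX was the most abundant of the 6 messages, at 33.6 ± 2.32 CPM per kilobase (SD over 6 mice). SP140 followed at 8.65 ± 1.79, SP110 at 8.25 ± 1.53 and PML at 7.06 ± 1.11 CPM per kilobase, and the levels of these 3 genes overlapped across mice. SP140L at 4.58 ± 0.494 and SP100 at 3.50 ± 0.481 CPM per kilobase came last. The highest SP100 mouse (4.07) and the lowest SP140L mouse (4.01) overlapped slightly, whereas the lowest PML mouse (5.56) was above the highest SP140L mouse (5.16). The lengths used, 12618 bases for SP100 and 12657 for PML, count every annotated exon, so a gene expressed mainly from short isoforms appears lower on this scale.

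Other genes near the cluster gave a background for its position. Beside the 4 family genes, 33 genes lay in the SP110 to SP100 interval or within 500000 bases of it. Of these 12 were tested, 8 were positive and 4 negative, and 0 passed with edgeR (0 at an unadjusted p under 0.05). TRIP12, a ubiquitin ligase, was at 156 ± 14.6 CPM in tazemetostat mice and 141 ± 26.0 CPM in vehicle mice (log2 fold change 0.14, edgeR adjusted p = 0.912). CAB39, a partner of the kinase LKB1, was at 74.9 ± 1.62 CPM in tazemetostat mice and 68.2 ± 5.53 CPM in vehicle mice (0.13, adjusted p = 0.855), and ITM2C, a membrane protein, had 26.1 ± 5.92 CPM and 25.7 ± 9.24 CPM in the same order (0.02, adjusted p = 0.992). The remaining 9 neighbours had fewer than 5 CPM in both groups. Those overlapping the family genes were scarce: AC009950.1 was at 3.09 CPM in tazemetostat mice and 2.70 CPM in vehicle mice, RN7SL834P at 1.23 and 0.854 CPM, AC010149.1 at 0.239 and 0.190 CPM, and HMGB1P3 had 35 counts over all 6 mice.

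**Figure D3:**
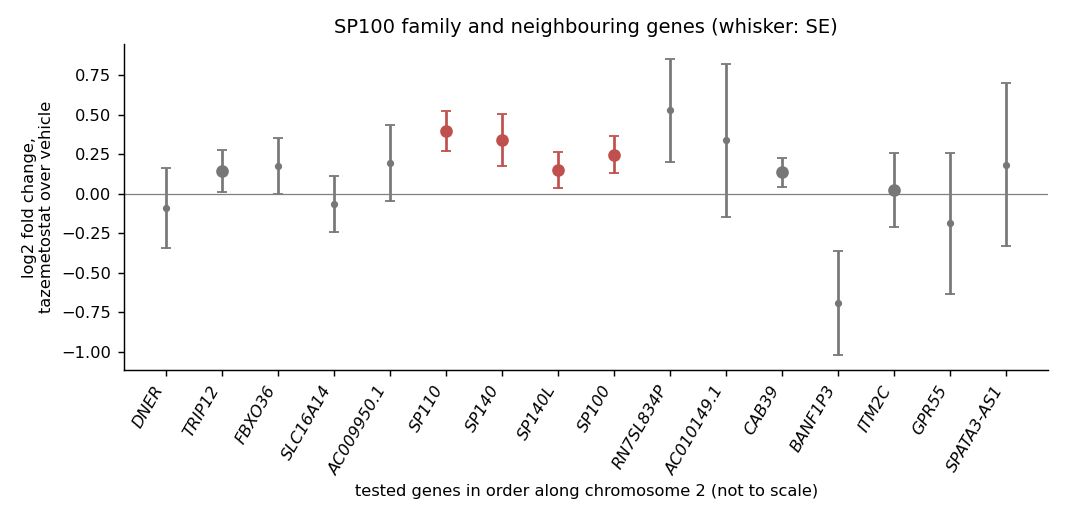
Log2 fold change, tazemetostat over vehicle (y axis, whiskers SE), of the 16 tested genes around the family in their order along chromosome 2 (x axis, not to scale); the 4 family genes are red and small points mark genes under 5 CPM in vehicle mice. The family genes run from 0.15 to 0.40.

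Genes of proteins that reside in PML bodies had small differences. Of 26 such genes 25 were tested, 0 passed (edgeR; DESeq2 also 0), 2 had an unadjusted p under 0.05 and 17 were positive, with a median of 0.07. Left out in turn, the mice moved this median to 0.02 without M_766 or M_767, 0.11 without M_769 or M_770 and 0.12 without M_768. The groups did not overlap for 3 of the 25, all higher under tazemetostat. Over all tested genes 12.6% did not overlap in either direction, and 6.58% were higher. Those with the smallest p are named. RB1, the retinoblastoma tumour suppressor, was at 189 ± 13.1 CPM in tazemetostat mice and 153 ± 23.3 CPM in vehicle mice (log2 fold change 0.31, edgeR adjusted p = 0.671). MDM2, the ligase that degrades p53, was at 358 ± 17.96 CPM in tazemetostat mice and 305 ± 24.1 CPM in vehicle mice (0.23, adjusted p = 0.707). The genes H3F3B and H3F3A encode the same replacement histone that DAXX carries, and H3F3B was at 583 ± 17.1 CPM in tazemetostat mice and 510.1 ± 35.7 CPM in vehicle mice (0.19, adjusted p = 0.783), while H3F3A was at 337 ± 17.8 CPM and 384 ± 36.2 CPM in the same order (-0.19, adjusted p = 0.812). Neither histone gene passed, and reads of H3F3A can be shared with its processed copies.

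SUMO conjugation holds the bodies together, since PML binds partners through SUMO. Of 20 genes of this pathway 19 were tested, 0 passed (edgeR; DESeq2 also 0), 0 had an unadjusted p under 0.05 and 14 were positive, with a median of 0.04. PIAS2, a SUMO ligase, was at 175 ± 4.58 CPM in tazemetostat mice and 153 ± 11.7 CPM in vehicle mice (0.19, edgeR adjusted p = 0.764). The SUMO protease SENP3 was at 43.3 ± 1.39 CPM in tazemetostat mice and 48.5 ± 2.80 CPM in vehicle mice (-0.16, adjusted p = 0.816), and SENP7 had a log2 fold change of 0.21.

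Genes related to the family by domain, or bound by SP100, were as often lower as higher. Of 11 SAND, PHD-bromodomain and HP1 genes 10 were tested, 0 passed (edgeR; DESeq2 also 0), 1 had an unadjusted p under 0.05 and 5 were positive, with a median of -0.05. CBX5, which encodes HP1 alpha, was at 203 ± 24.1 CPM in tazemetostat mice and 251 ± 29.02 CPM in vehicle mice (log2 fold change -0.30, edgeR adjusted p = 0.680). GMEB2, a SAND-domain factor, was at 40.2 ± 0.373 CPM in tazemetostat mice and 45.2 ± 0.823 CPM in vehicle mice (-0.17, adjusted p = 0.782), with no overlap between the groups. DEAF1, another SAND-domain factor, had a log2 fold change of -0.15, and the corepressor TRIM28 one of -0.13.

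The interferon pathway that induces PML and the family had a higher median than these 3 lists. Of 14 signalling genes, 14 were tested and 10 were positive, with a median of 0.25. With edgeR 0 passed, with DESeq2 4, where it called 0.323% of 36794 genes, and with limma-voom 0. An unadjusted edgeR p under 0.05 was found for 7, against 6.55% of all tested genes. IRF1, which interferon-gamma induces and which activates other interferon targets, was at 294, 294 and 291 CPM in tazemetostat mice M_767, M_768 and M_774, against 210.3, 201 and 218 CPM in vehicle mice M_766, M_769 and M_770 (log2 fold change 0.48, edgeR adjusted p = 0.183). STAT2 (0.57) and IRF2 (0.37) likewise did not overlap between the groups and did not pass (edgeR adjusted p = 0.219 and 0.324). The vehicle mouse M_770 was close to the other vehicle mice for IRF1, unlike for SP140.

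Of the 34 other interferon-stimulated genes, 34 were tested and 33 were positive, with a median of 0.68. With edgeR 1 passed, IFI27 (18 with DESeq2, 0 with limma-voom), where edgeR called 0.0345% of 20301 genes and DESeq2 0.323% of 36794 genes. The groups did not overlap for 25 of the 34, all higher under tazemetostat. Over all tested genes 12.6% did not overlap, 6.58% higher. The 4 with the smallest p had log2 fold changes of 1.12 for IFI27, 0.69 for TRIM22, 1.48 for IFI44L and 0.75 for EPSTI1. The 5 positive log2 fold changes of the SP100 family and PML, 0.15 to 0.40, lie in the lower part of the range of this list, -0.12 to 1.48, and whether the genes differ from the list was not tested. Genes of the dissociation-stress response differed mostly in the same direction: 18 of 20 were positive (median 0.66, 0 passing with edgeR and 4 with DESeq2). The groups did not overlap for 9 of the 20, all higher under tazemetostat. An unadjusted edgeR p under 0.05 was found for 12, against 6.55% of all tested genes. Those with the smallest p were ATF3 (0.88), ZFP36 (0.54), DUSP1 (0.96) and IER3 (1.12). The mean log2 CPM of the 20 stress genes was 5.93 ± 0.238 in tazemetostat mice and 5.26 ± 0.392 in vehicle mice. Their part in the levels of the 6 genes was not tested. Markers of stroma and myeloid cells, human genes counted on hg38, summed to 4.59 to 6.09 CPM in tazemetostat mice and 2.79 to 6.70 CPM in vehicle mice. The host is a mouse, so these sums are no direct measure of host cells. Of 6 tested markers 4 were positive and 2 negative. The groups did not overlap for 1, PDGFRB, at 0.618 and 0.247 CPM in the same order (log2 fold change 1.34, edgeR adjusted p = 0.496).

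**Figure D4:**
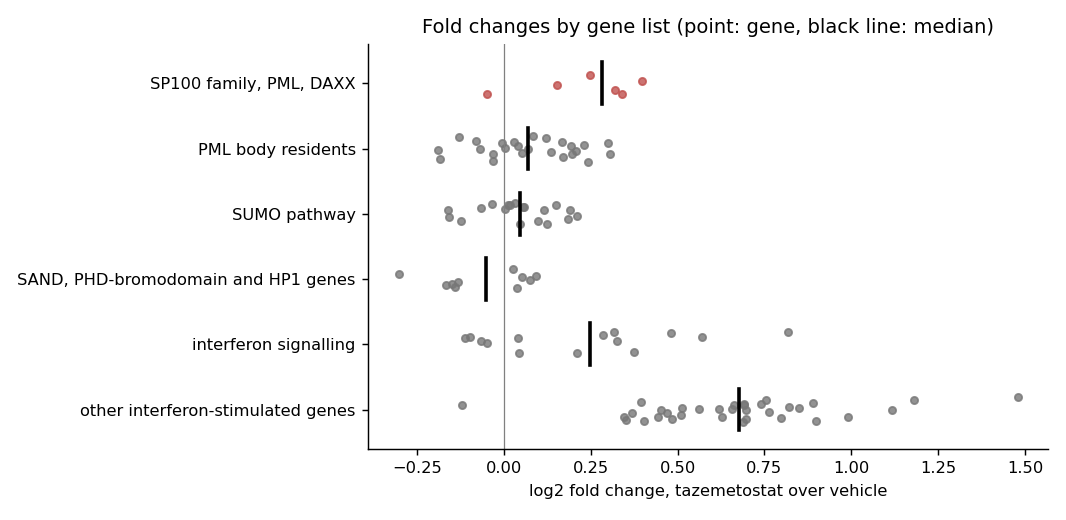
Log2 fold change, tazemetostat over vehicle (x axis), of each tested gene (points) in 6 gene groups, with the group median as a black line. The median is 0.28 for the SP100 family, PML and DAXX, 0.07 for PML body residents, 0.04 for the SUMO pathway and 0.68 for other interferon-stimulated genes.

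Genes most like SP100 in profile were sought by the root mean square difference of log2 CPM, centred on each gene's mean, over the 6 mice, among 12684 genes that reached a mean of 1 on the log2 CPM scale. The closest was MYD88, the adaptor of Toll-like receptors (difference 0.0363, 72.8 ± 5.54 CPM in tazemetostat mice and 62.1 ± 6.67 CPM in vehicle mice). VPS9D1-AS1 (0.0379), AC022211.2 (0.0399) and SNORA73B (0.0470) followed, and NLRC5, the transactivator of MHC class I genes, came next (0.0473, 832 ± 74.2 CPM in tazemetostat mice and 699.8 ± 89.4 CPM in vehicle mice). Of the other 5 genes, PML ranked 23rd, SP140L 59th, SP110 103rd, SP140 623rd and DAXX 6686th in likeness to SP100.

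**Figure D5:**
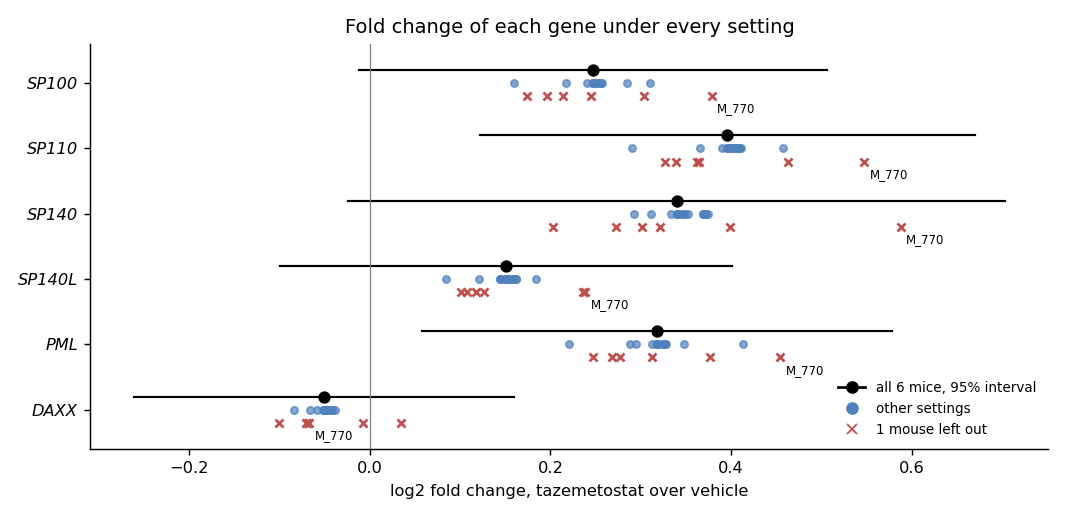
Log2 fold change, tazemetostat over vehicle (x axis), of each gene in the fit of all 6 mice with its 95% interval (black), under other settings (blue) and with 1 mouse left out (red crosses, M_770 marked). SP100, SP110, SP140, SP140L and PML stay above 0 throughout, the highest value comes without M_770, and DAXX lies between -0.10 and 0.03.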

How the data were processed

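RNA of sorted tumour cells was counted in 18 libraries, 3 for each of 6 mice. The values deposited by the authors are whole-number counts per gene, not normalized. The submitters' processing notes name hg38 and DESeq2 without saying how the tool was applied. Sources used here give no aligner, counter or strand setting, so overlapping genes and paralogs are uncertain. Gene lengths deposited by the authors equal the exonic bases of GENCODE 29 for the 6 genes.

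Libraries held 16124494 to 26336269 counts. They were summed by mouse, and genes with enough counts (filterByExpr, minimum count 10) entered the quasi-likelihood F test of edgeR 4.0.16 (R 4.3.3, TMM scaling, Benjamini-Hochberg adjustment over 20301 genes, threshold 0.05). Genes left out held 0.0602% of the counts. CPM uses the TMM factors; log2 CPM has a prior count of 2. The SE of a log2 fold change is its size divided by the square root of F, and intervals are at 95%. DESeq2 1.42.0, limma 3.58.1, other factors and filters, single libraries and mice left out were alternatives. The steps were tested on simulated counts. The replicate is the mouse, so p-values measure the spread between mice carrying 1 cell line.

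The genes and lists were chosen with earlier results of these data known. Named were the 6 genes, up to 4 genes of each list with the smallest p, tested genes within 500000 bases of the cluster, genes overlapping the 6, and the 5 most like SP100; some genes this rule names are not reported here. Windows were aligned with Biopython 1.88. Libraries of the same letter and different mice did not deviate together (mean correlation -0.00407 over 45 pairs), so letters were not taken to pair samples.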

Additional observations from a re-analysis of the deposited data

How the results depend on the processing

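The 22 alternatives run for each gene include some in which the sign could hardly change. A threshold of 0.1 reuses the main fit, robust edgeR gave the same log2 fold changes, and the permutation uses the same log2 CPM of the 6 mice. The 5 positive log2 fold changes kept their sign in all 22: SP100 0.16 to 0.38, SP110 0.29 to 0.55, SP140 0.20 to 0.59, SP140L 0.09 to 0.24 and PML 0.22 to 0.45. SP110 passed in 3: without a low-count filter (0.41), with the mouse as a random effect (0.40), and with the letters as a replicate block added (0.40, limma adjusted p = 0.0447); no other of the 6 genes passed in any. DAXX changed sign without M_766 (0.034), and leaving out each mouse in turn gave -0.10 to 0.034; over the same fits SP100 ran from 0.17 to 0.38, SP110 from 0.33 to 0.55, SP140 from 0.20 to 0.59, SP140L from 0.10 to 0.24 and PML from 0.25 to 0.45. The count of 7 genes called was 252 without a filter, 119 with DESeq2, 225 with the mouse as a random effect, 190 with the replicate block, 0 with library A alone and 0 with library C alone, and 0 to 59 with each mouse left out. The interferon signalling median was 0.16 with library A alone and 0.16 to 0.26 with each mouse left out. The SUMO median was 0.093 with library A alone and -0.00045 with library B alone. With each mouse left out, the median of the SAND, PHD-bromodomain and HP1 genes lay between -0.065 and 0.035 (down to -0.089 over all alternatives), that of PML body residents between 0.018 and 0.12, and that of the 6 genes between 0.19 and 0.42. With upper-quartile factors the median of all tested genes was -0.04. The causes of these shifts were not tested.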

Other observations

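Ratios of counts within a mouse need no scaling, and 4 were formed after the values were seen. Their p-values are therefore descriptive and adjusted over these 4 alone, and other pairs of the 6 genes were not formed. DAXX, the divisor of 2 of them, was at 95.6 CPM in M_768 and 102 CPM in M_770. Those are the mice through which PML and SP110 overlapped. PML over DAXX was 1.01 in M_767, 0.952 in M_768 and 0.958 in M_774 of the tazemetostat group, against 0.607, 0.766 and 0.912 in vehicle mice M_766, M_769 and M_770, with no overlap between the groups (two-sided exact permutation p = 0.1, the smallest possible, 0.2 adjusted over the 4 ratios). SP110 over DAXX was 0.643, 0.609 and 0.643 in the tazemetostat mice, against 0.374, 0.46 and 0.57 in the vehicle mice, also without overlap (exact p = 0.1, 0.2 adjusted). SP110 over its neighbour SP140 was 1.19 ± 0.0203 in tazemetostat mice and 1.17 ± 0.125 in vehicle mice (SD, n = 3 each, exact p = 0.7, 0.7 adjusted), and the lowest value, 1.05, was that of vehicle mouse M_770. SP100 over SP140L was 1.76 ± 0.0789 in tazemetostat mice and 1.64 ± 0.081 in vehicle mice (exact p = 0.2, 0.267 adjusted).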
